A study of Mus musculus with 64 samples.

Results

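The cytochrome P450 genes of the mouse were followed across liver, lung, inguinal white fat and heart. Members were taken by symbol: every Cyp gene with a family number, a subfamily letter and a member number, except Cyp4a10 and Cyp4a14, and no pseudogenes. This gave 81 genes of the 25107 symbols in all tables. Of these, 71 were listed in liver, 58 in fat, 50 in lung and 41 in heart, and 34 were listed in all 4 tissues. The study measured RNA in 64 libraries, 20 of liver, 20 of heart, 12 of fat and 12 of lung. Each tissue had 4 groups, which were sedentary and trained mice with vehicle treatment and sedentary and trained mice with the muscle knockout of Bmal1, a core factor of the circadian clock. There were 5 libraries per group for liver and heart, and 3 per group for the other tissues. All mice, controls included, carried the genotype Cre+:iMSBmal1 fl/fl, a floxed Bmal1 with an inducible recombinase active in skeletal muscle. An agent that induced the knockout therefore cannot be told apart from the knockout itself. Training was a daily treadmill run over 6 weeks, and organs were collected 48 hours after its final session. Strain, sex, age and time of day are not given in the sources used here.

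P450 enzymes are heme proteins that insert an oxygen atom into their substrates, using electrons from P450 oxidoreductase in the endoplasmic reticulum or from ferredoxin in mitochondria. Families numbered from Cyp1 to Cyp4 mostly handle foreign compounds, fatty acids and eicosanoids, and higher-numbered families make and break down bile acids, steroids, vitamin D and retinoic acid. Liver is their main site, where many are set by nuclear receptors, by the pulsatile pattern of growth hormone and by the position of the hepatocyte in the lobule. Airway club cells of the lung and adipocytes carry sets of their own.

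Column totals were 14.8 to 17.1 M (megareads) in liver, 16.4 to 18.5 M in heart, 18.97 to 31.2 M in fat and 18.7 to 35.7 M in lung. The liver and heart totals are of values the authors had scaled, so they are not read depths. Levels below are on the scale of counts per megaread (CPM) within each tissue. Tissues were normalised separately, so differences in level between tissues carry no test. The tissue labels were checked against defining markers: Alb was at 41640 or more in every liver library, Scgb1a1 at 22200 or more in every lung library and Adipoq at 1860 or more in every fat library. Some libraries carried transcripts of another tissue. Fat trained knockout replicate 2 summed to 2628 over 10 hepatocyte markers, against a median of 29.4 in fat, heart trained vehicle replicate 5 to 102, and liver trained knockout replicate 2 to 152 over 6 skeletal muscle markers. Lung trained knockout replicate 3 summed to 70.0 over brown adipocyte markers, against a median of 11.5 in lung. In heart the brown adipocyte marker Ucp1 was highest in trained knockout replicate 5 (48.8), sedentary vehicle replicate 3 (45.9) and trained vehicle replicate 1 (31.2), against a median of 1.06. These hearts were kept in the fits without libraries of other transcripts. Muscle is not among the tissues, so the targeted gene is no check of the knockout here. In liver, Arntl (Bmal1) stood at 0.777 ± 0.367 in trained knockout and 2.48 ± 0.779 in trained vehicle mice (SD, n = 5 each), with a limma adjusted p of 0.034. Sedentary vehicle livers reached toward both, at 0.781, 1.99, 2.25, 0.823 and 2.445, and sedentary knockout livers were at 0.952 ± 0.439 (SD, n = 5).

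Promoter sequences are shown for 4 members that the results below turn on, as the 250 bases before the RefSeq transcription start (build GRCm38.p6), 5′ to 3′ on the strand of the gene. Capitals mark a match to a motif that was searched. The set shows the retinoic acid element of Cyp26a1, the TATA boxes of Cyp2c38 and Cyp2e1, and Cyp2f2, where none of the motifs was found. Cyp26a1 lies at chr19:37697558-37697807 on the plus strand, Cyp2c38 at chr19:39463076-39463325 on the minus strand, Cyp2e1 at chr7:140763569-140763818 on the plus strand and Cyp2f2 at chr7:27119705-27119954 on the plus strand.
Cyp26a1: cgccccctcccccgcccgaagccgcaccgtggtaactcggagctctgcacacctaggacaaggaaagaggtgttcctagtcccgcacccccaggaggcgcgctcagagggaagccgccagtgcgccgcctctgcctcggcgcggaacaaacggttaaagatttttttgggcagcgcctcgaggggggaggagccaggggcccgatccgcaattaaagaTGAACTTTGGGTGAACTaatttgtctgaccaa
Cyp2c38: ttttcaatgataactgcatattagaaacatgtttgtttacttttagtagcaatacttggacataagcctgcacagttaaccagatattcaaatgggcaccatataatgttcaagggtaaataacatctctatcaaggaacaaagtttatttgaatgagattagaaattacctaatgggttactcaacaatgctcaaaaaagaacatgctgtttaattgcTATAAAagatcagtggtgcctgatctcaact
Cyp2e1: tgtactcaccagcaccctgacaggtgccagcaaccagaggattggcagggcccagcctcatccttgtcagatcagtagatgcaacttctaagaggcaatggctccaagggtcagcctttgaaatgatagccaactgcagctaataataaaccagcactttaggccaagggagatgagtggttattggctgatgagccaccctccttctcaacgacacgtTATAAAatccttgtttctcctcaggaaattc
Cyp2f2: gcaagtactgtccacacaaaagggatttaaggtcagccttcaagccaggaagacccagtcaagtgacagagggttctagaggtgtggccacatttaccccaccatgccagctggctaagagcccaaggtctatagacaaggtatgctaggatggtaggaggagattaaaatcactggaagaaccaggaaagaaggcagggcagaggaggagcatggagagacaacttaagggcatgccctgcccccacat

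The RefSeq table held a promoter for 66 of the 81 members, 74 promoters in all because some genes have several starts, among 32851 promoters of all genes. Both strands were searched. The direct repeat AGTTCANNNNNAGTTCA, to which retinoic acid receptors bind, was found on the reverse strand of the Cyp26a1 promoter, 32 bases before the start. It occurred in 7 of the 32851 promoters (0.0213%), and Cyp26a1 was the 1 of 74 member promoters that held it. Only this exact spelling was searched, so these shares do not test whether the Cyp26a1 promoter stands out. A TATAAA was present in 24 of 74 member promoters (32.4%) against 12.4% of all promoters. The clock's E-box CACGTG was found in 2 of 74, those of Cyp2j6 and Cyp4v3 (2.7%, against 6.02% of all), and the D-box TTATGTAA, read by Dbp, Tef and Hlf, in 0 of 74 (0.819% of all). At so low a share of all promoters, 0 of 74 cannot tell members from other genes. Other spellings of these sites were not searched. Cyp2u1 is not in the table.

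In liver the listed members summed to 20770 CPM on average, 1.75 to 2.34% of each library. The sum was 19610 ± 3388 in sedentary vehicle, 21260 ± 1748 in trained vehicle, 20720 ± 2085 in sedentary knockout and 21500 ± 2076 in trained knockout mice (SD, n = 5 each). The 4 group means differed by less than the SD of every group except trained vehicle. Family Cyp2 made up 72.7% of the sum. Within it Cyp2e contributed 29.7% of the total, Cyp2d 15.4%, Cyp2c 15.3%, Cyp2a 6.01% and Cyp2f 3.68%. Cyp3a contributed 13.7%, Cyp1a 3.27%, Cyp27 2.47%, Cyp4v 2.1%, Cyp7b 1.7%, Cyp4f 1.59% and Cyp7a 1%.

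Per kilobase of transcript, Cyp2e1, which oxidises ethanol, acetone and acetaminophen, led the liver at 3366 CPM per kilobase, followed by Cyp3a11, the main drug-metabolising Cyp3a of the mouse, at 965. Cyp2d9, a steroid hydroxylase known from male mouse liver, followed at 790. Cyp2a5, the coumarin hydroxylase, stood at 453, Cyp2c29 at 451, Cyp2d10 at 444, Cyp2d26 at 420 and Cyp2f2, which activates naphthalene, at 409. The steps from Cyp2a5 to Cyp2f2 are small beside the range of single libraries. In level, 28 members stood at 100 CPM or more in liver. Reads are hard to assign within some subfamilies: 31 of the 80 members with a transcript length share more than 10% of their 50-base stretches with another symbol, and Cyp2c40 (72.1%), Cyp2c69 (54.8%) and Cyp2c67 (52.8%) share more than 50%, so the split among these is uncertain.

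**Figure D1:**
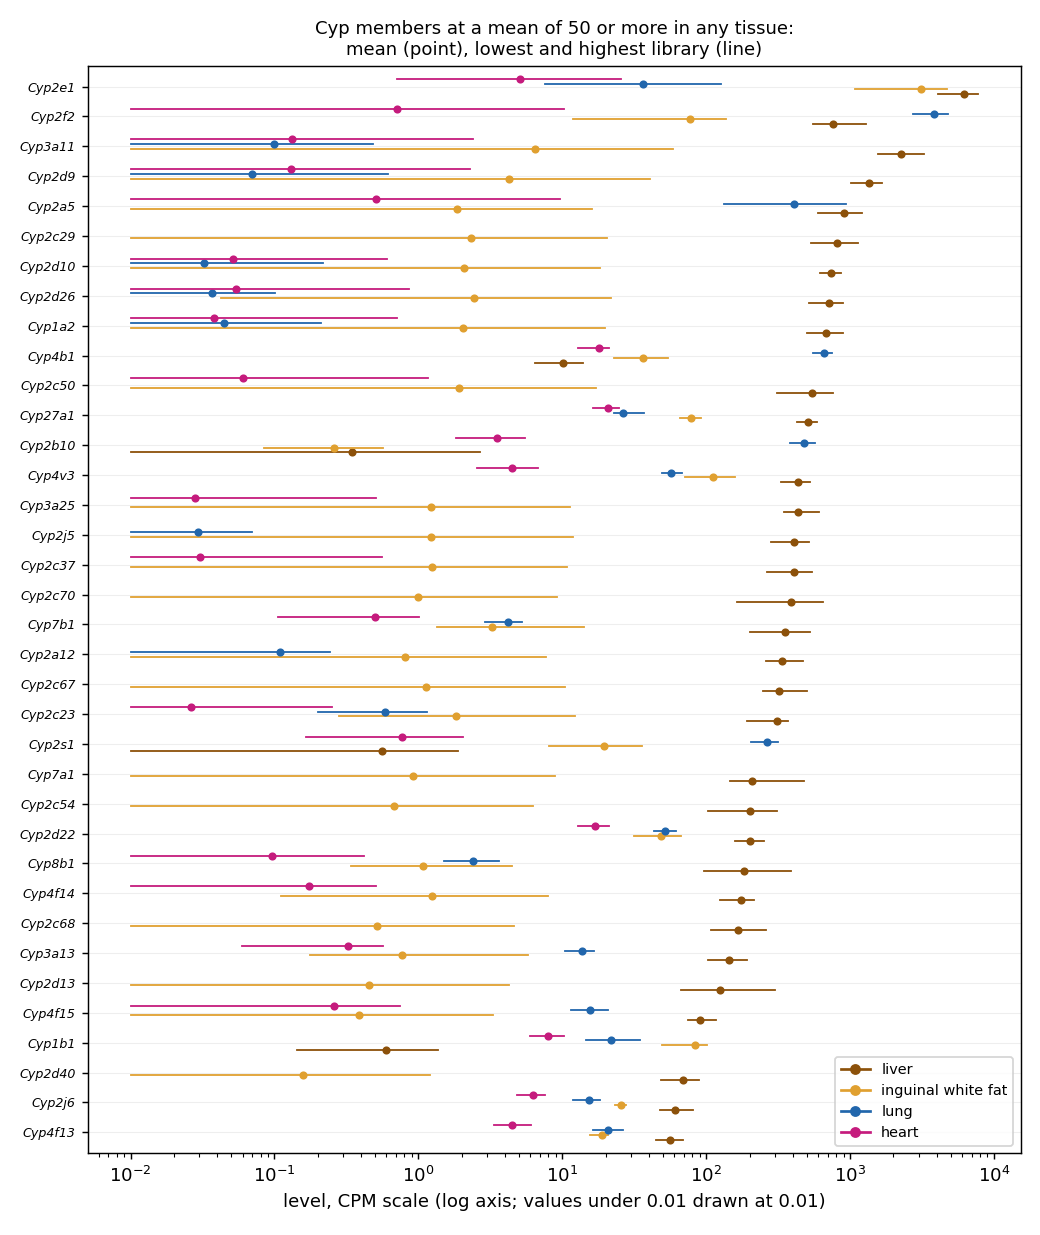
Level of each member with a mean of 50 or more in any tissue, on a log axis of the CPM scale, with points for the mean over libraries and lines from the lowest to the highest library. Liver (brown) lies highest for most members, lung (blue) for Cyp2f2, Cyp4b1, Cyp2b10 and Cyp2s1, and fat (orange) for Cyp1b1.

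Of the 61 members that reached a mean of 1 CPM in any tissue, 45 were highest in liver, 12 in lung, 4 in fat and 0 in heart, and 15 reached 1 CPM in all 4 tissues. The 13 members listed in liver alone, 6 in lung alone and 2 in fat alone have no next tissue and were not ranked here. Among the rest, those standing farthest above the next tissue in liver were Cyp2d40 (437-fold), Cyp2a12 (417-fold), Cyp2c70 (389-fold), which makes muricholic acids in mouse, and Cyp2d10 (355-fold). For each the next tissue was fat, where 3 libraries carried hepatocyte transcripts, and mean fat levels were 0.159 for Cyp2d40, 0.802 for Cyp2a12, 1.0 for Cyp2c70 and 2.06 CPM for Cyp2d10. With libraries carrying transcripts of another tissue or of B cells left out, an alternative chosen after seeing the data, mean fat levels were 0.0045, 0.039, 0.125 and 0.187 CPM in that order. Members were not ranked anew for this alternative. The folds over the next tissue were then 15500, 3460, 3160 and 3930, against levels near 0, so neither their size nor their order is firm. For Cyp2a12 that next tissue was lung (0.0978 CPM), and for the others it remained fat. In lung they were Cyp2b10 (135-fold, next in heart), Cyp4b1 (18.2-fold), Cyp2s1 (13.5-fold) and Cyp1a1 (11.5-fold). In fat Cyp1b1, which hydroxylates estradiol, stood 3.84-fold above lung, and the other leads were small, such as 1.48-fold for Cyp2ab1. Cyp2b10, known as a target of the receptor CAR in liver, was at 0.344 CPM in liver and 477 in lung.

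The test in liver compared 55 members that reached a mean of 1 CPM, out of 71 listed. The 5 comparisons in a tissue share groups, so they are not independent of each other. Between trained knockout and trained vehicle mice, 2 of 55 members passed, against 2.63% of the 12817 genes tested (1.55% higher and 1.08% lower). That count of 337 genes was 4 without trained vehicle replicate 3 and 594 without trained vehicle replicate 2, the lowest and highest when 1 library was left out. Cyp26a1, the main retinoic acid hydroxylase of liver, was higher in the knockout, and Cyp2u1, which hydroxylates long-chain fatty acids in human, was lower.

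Cyp26a1, on chromosome 19, stood at 12.3, 6.78, 11.2, 8.54 and 11.7 CPM in the 5 trained vehicle livers and at 29.8, 16.8, 25.1, 21.03 and 18.4 in the trained knockout livers. Every trained knockout library lay above every trained vehicle library. The log2 fold change was 1.07 (SE 0.22, 95% interval 0.60 to 1.53), or 2.09-fold, with a limma adjusted p of 0.0294. In sedentary mice the values were 17.7, 33.4, 36.8, 12.8 and 16.6 with vehicle and 16.8, 17.8, 19.6, 19.5 and 21.3 in the knockout. The group means were 23.5 ± 10.9 in sedentary vehicle, 10.1 ± 2.33 in trained vehicle, 18.98 ± 1.72 in sedentary knockout and 22.2 ± 5.27 in trained knockout livers (SD, n = 5 each). All 5 trained vehicle libraries lay below the other 15 livers. Training in vehicle mice gave -1.06 (SE 0.22, adjusted p 0.212) and the difference between the training effects was 1.25 (SE 0.32, adjusted p 0.218), neither past the threshold. The call against trained vehicle mice was lost, with adjusted p from 0.0613 to 0.0838, when trained vehicle replicate 3 or 4 or trained knockout replicate 1 or 3 was left out, and at 0.0555 without the filter on low genes. The promoter of Cyp26a1 is the one with the retinoic acid element printed above.

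Cyp2u1, on chromosome 3, stood at 54.3, 45.3, 73.7, 64.4 and 33.0 in trained vehicle livers and at 31.0, 27.5, 35.2, 32.9 and 30.2 in trained knockout livers. The groups overlapped, as the lowest trained vehicle library lay inside the trained knockout range. The fold change was -0.72 (SE 0.19), 1.65-fold lower, with a limma adjusted p of 0.0468. Sedentary groups were at 53.2 ± 9.37 with vehicle and 48.4 ± 14.3 in the knockout (SD, n = 5 each). Of 10 refits leaving out 1 library, 2 kept the call, those without trained vehicle replicate 2 or 5, and the adjusted p ran from 0.0209 to 0.143. It was 0.0754 without the filter on low genes and 0.0501 with each library divided by its own total. Without trained knockout replicate 2, the library with muscle transcripts, Cyp2u1 was at -0.68 (adjusted p 0.0776) and Cyp26a1 at 1.15 (adjusted p 0.0338).

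Markers of other liver cells are set beside this comparison. The sum of 5 macrophage markers (Clec4f, Marco, Cd5l, Vsig4 and Adgre1, all listed) ran from 44.9 to 108 in trained vehicle and from 101 to 312 in trained knockout livers, ranges that overlapped. Their part in the 2 calls was not tested. The summed pericentral hepatocyte markers also overlapped, at 3455 to 4503 and 3320 to 4261. In bulk tissue, fewer cells of a type and less RNA per cell cannot be told apart.

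Between trained and sedentary knockout mice, 1 of 55 members passed in liver, against 0.0234% of all genes (3 of 12817). Cyp2c38, an arachidonic acid metabolising member of the Cyp2c cluster on chromosome 19, was at 43.9, 19.5, 44.7, 38.9 and 44.2 in sedentary and 11.9, 15.2, 14.9, 26.5 and 15.6 in trained knockout livers. The groups overlapped through 1 library on each side, sedentary replicate 2, which was low, and trained replicate 4, which was high. The fold change was -1.13 (SE 0.20, 95% interval -1.53 to -0.72), 2.18-fold lower, with a limma adjusted p of 0.0403. It was -1.35 (adjusted p 0.000348) without sedentary replicate 2 and -1.30 (adjusted p 0.00737) without trained replicate 4. Leaving out any other library of the comparison ended the call, with an adjusted p up to 0.222, as did fitting these groups alone (0.215) or without the filter on low genes (0.0995). In vehicle mice Cyp2c38 was at 28.0 ± 2.48 sedentary and 21.1 ± 3.07 trained (SD, n = 5 each), a change of -0.40 (adjusted p 0.726), and the difference between the training effects, -0.72, had an adjusted p of 0.379.

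**Figure D2:**
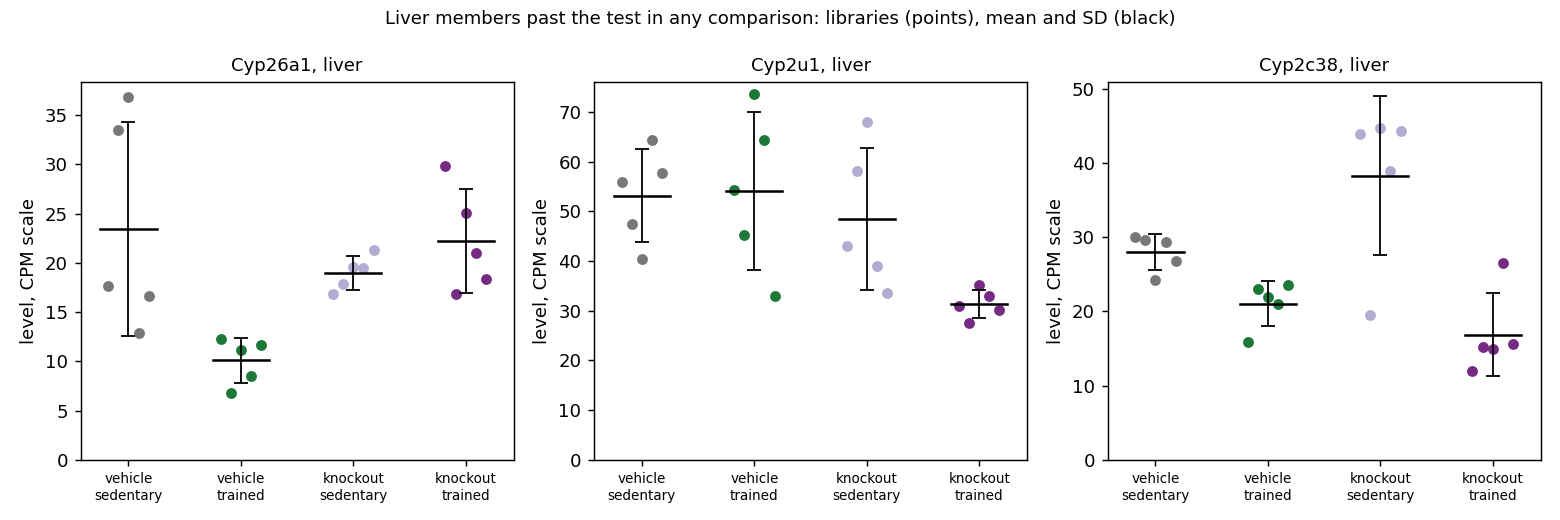
Level of Cyp26a1, Cyp2u1 and Cyp2c38 in each liver library (points) with mean and SD (black), by group. Trained vehicle mice lie lowest for Cyp26a1 (6.78 to 12.3), trained knockout mice lie low for Cyp2u1 (27.5 to 35.2), and 1 library stands apart in each knockout group for Cyp2c38.

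Cyp2a4, a testosterone hydroxylase known as higher in female mouse liver, showed the same order at a far lower level. Sedentary knockout livers were at 4.18, 1.06, 2.25, 2.25 and 2.24 and trained knockout livers at 0.446, 0.229, 0.539, 0.339 and 0.0653. The groups did not overlap, but the change, -1.31 (SE 0.25), had an adjusted p of 0.0938. Cyp2a4 shares 36.1% of its 50-base stretches with Cyp2a5, whose level in these groups was 886 ± 157 and 781 ± 211 (SD, n = 5 each), and its own counts are uncertain for that reason. Of the 12 members listed as higher in female mouse liver, 10 were listed and 6 tested. The count passing between trained and sedentary knockout mice was 0 higher and 1 lower, Cyp2c38, and the median log2 change of the 6 was -0.49, against 0.036 for the 55 members. Of the 6, 2 were positive, Cyp17a1 among them (0.75, limma adjusted p 0.277), whose groups did not overlap. The 3 members listed as higher in male liver, Cyp7b1, Cyp2d9 and Cyp2u1, had 0 called here and 1 called lower, Cyp2u1, between trained knockout and trained vehicle mice.

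Bile acid genes did not pass in any liver comparison. Cyp7a1, the rate-limiting enzyme of bile acid synthesis, was at 182, 152, 151, 157 and 178 in sedentary and 197, 246, 238, 228 and 225 in trained knockout livers. These groups did not overlap, while the change of 0.47 had an adjusted p of 0.365. In vehicle mice it was 199 ± 23.5 sedentary and 244 ± 134 trained (SD, n = 5 each), where trained replicate 2 alone stood at 479. Cyp8b1, which sets the share of cholic acid, ran from 158 to 386 in trained vehicle and from 96.7 to 183 in trained knockout livers (-0.71, SE 0.29, adjusted p 0.157). Cyp27a1, the mitochondrial sterol side-chain hydroxylase, lay between 427 and 590 in all 20 livers. Cyp7b1, the oxysterol hydroxylase, ran from 202 to 524, with trained means of 408 ± 89.6 and 390 ± 56.8 and sedentary means of 313 ± 119 and 300 ± 108 in vehicle and knockout mice (SD, n = 5 each). Cyp46a1, which makes the oxysterol that leaves the brain, and Cyp39a1, which hydroxylates that oxysterol for bile acid synthesis, were at 2.17 to 4.25 and 30.8 to 41.4 in trained knockout livers and did not pass (adjusted p 0.295 and 0.373 against sedentary knockout mice). Over the 6 genes the median log2 change with training was 0.21 in vehicle mice, 5 of 6 positive, and 0.26 in knockout mice, 4 of 6 positive, with 0 of 6 called in each.

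Training in vehicle mice called 0 of 55 members in liver (0% of all genes, 0 of 12817). By limma's unadjusted p under 0.05, 8 members and 885 genes would have passed. Smallest in p were Cyp26a1, Cyp4f14 (0.32, adjusted p 0.461), which acts on leukotrienes, and Cyp26b1 (-1.12, adjusted p 0.644), the second retinoic acid hydroxylase. Cyp26b1 ran from 5.24 to 23.2 in sedentary and from 0.649 to 12.8 in trained vehicle livers, so its groups overlapped widely. The knockout in sedentary mice also called 0 of 55 (0% of all genes), with 4 members and 616 genes at an unadjusted p under 0.05. There Cyp2a4 (0.88, adjusted p 0.797), Cyp4a32 (0.36, adjusted p 0.995) and Cyp2c23 (0.27, adjusted p 0.995) were smallest in p. The difference between training effects called 0 of 55 (0.0078% of all genes, 1 of 12817), with 9 members at an unadjusted p under 0.05. After Cyp26a1 these were led by Cyp2a4 (-1.12, adjusted p 0.286) and Cyp4f16 (0.68, adjusted p 0.333).

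The most abundant drug-metabolising members did not pass either. Cyp2e1 was at 5348 ± 1339, 6030 ± 710, 6533 ± 884 and 6766 ± 575 in sedentary vehicle, trained vehicle, sedentary knockout and trained knockout livers (SD, n = 5 each). Its highest and lowest group means differ by slightly more than the SD of the sedentary vehicle group, and by more than the smaller SDs of the other groups. Cyp3a11 was at 2352 ± 280, 1934 ± 231, 2311 ± 628 and 2453 ± 517, and Cyp1a2, which oxidises caffeine, at 643 ± 112, 757 ± 91.8, 670 ± 90.8 and 639 ± 155, in the same order. The Ah receptor target Cyp1a1 lay between 0.513 and 1.94 in all 20 livers. Cyp2r1, the hydroxylase that starts vitamin D activation, was at 12.4 ± 1.64 in trained vehicle and 16.5 ± 2.73 in trained knockout livers (0.38, adjusted p 0.117). Cyp17a1, a steroid hydroxylase, was at 8.92 to 12.04 in sedentary and 13.9 to 21.2 in trained knockout livers, groups that did not overlap (0.75, adjusted p 0.277).

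Signs within subfamilies are given as descriptions, because similar neighbours in a cluster can share reads. Over the 55 members the median log2 change was 0.15 with training in vehicle mice, 0.036 with training in knockout mice, -0.0062 for the knockout in sedentary and -0.10 in trained mice, with all-gene medians between -0.0088 and -0.00046. Of the 55, 38 were positive with training in vehicle mice, 29 with training in knockout mice and 27 for the knockout in sedentary mice, and 32 were negative for the knockout in trained mice. The 6 tested Cyp2d members were all positive with training in vehicle mice (median 0.18) and all negative between trained knockout and trained vehicle mice (median -0.15). The 12 tested Cyp2c members were positive in 10 with training in vehicle mice (median 0.21) and in 11 for the knockout in sedentary mice (median 0.24), but split 6 and 6 for the knockout in trained mice. All 4 tested Cyp3a members were positive between trained knockout and trained vehicle mice (median 0.23) and with training in knockout mice (median 0.26). These comparisons share groups, and apart from Cyp2c38 no member of the 3 subfamilies was called in any of them.

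**Figure D3:**
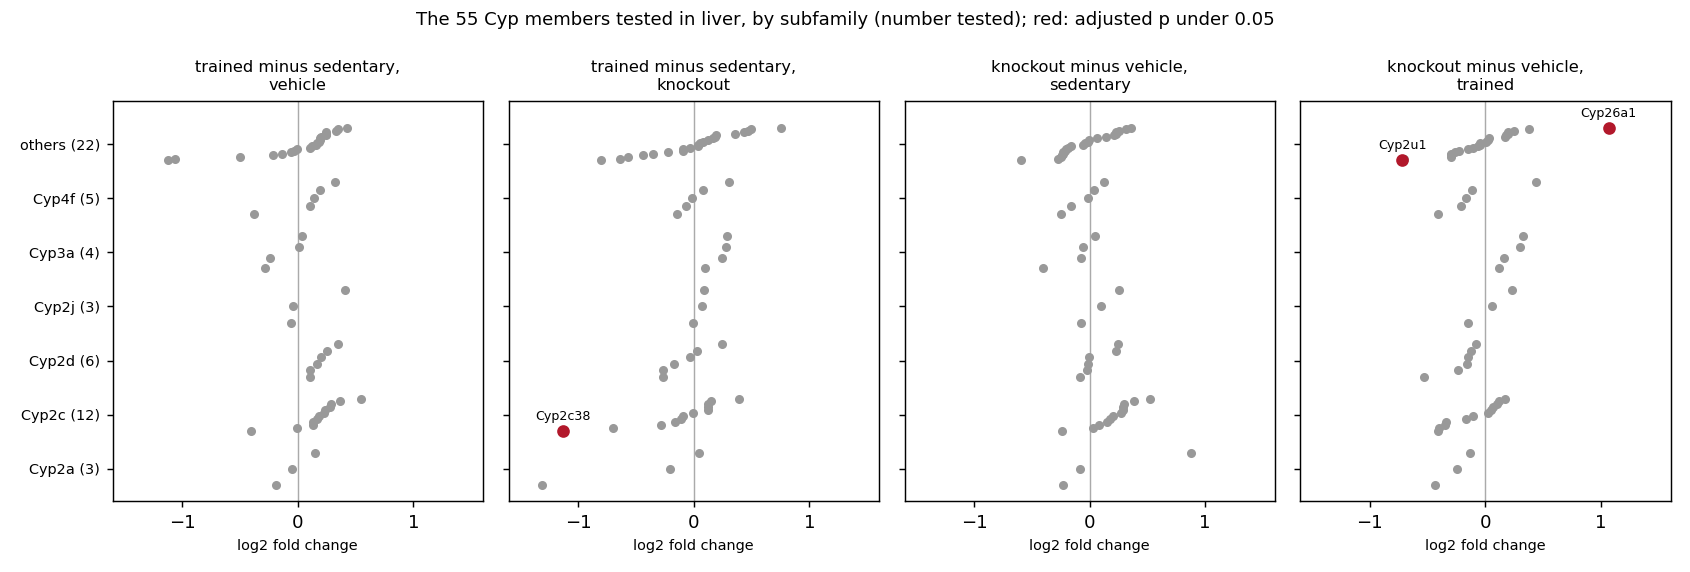
Log2 fold change of each of the 55 members tested in liver, by subfamily, in 4 comparisons, with members past the test in red. Most points lie near 0, and the 3 red points are Cyp2c38, Cyp26a1 and Cyp2u1.

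The electron supply of the P450 system (Por, Cyb5a, Cyb5b, Cyb5r3, Fdx1 and Fdxr) had 0 of 6 called in liver, fat and lung. In heart Cyb5r3, which encodes a cytochrome b5 reductase, rose with training in vehicle mice by 0.14 (limma adjusted p 0.0477), where 8.27% of all 13456 genes passed. Of 15 listed regulators, 14 were tested in liver, and 2 passed between trained knockout and trained vehicle mice. There 2.63% of all 12817 genes passed (337 genes, and 4 to 594 when 1 library was left out). Cish, a feedback inhibitor induced by growth hormone, stood at 3.08 to 10.02 in trained vehicle and 27.3 to 63.8 in trained knockout livers (2.65, SE 0.60, adjusted p 0.0323). Bcl6, a repressor that opposes Stat5, stood at 51.3 to 71.1 and 5.34 to 37.6 (-1.82, SE 0.48, adjusted p 0.0473). Neither group pair overlapped, but sedentary vehicle livers reached into both ranges. Cish was there at 49.8, 3.65, 6.98, 46.8 and 3.84, and Bcl6 at 26.15, 71.1, 67.6, 21.8 and 98.9. Sedentary knockout livers ran from 10.9 to 64.5 for Cish and from 7.66 to 47.0 for Bcl6. Refits leaving out 1 library are not given for these genes. The xenobiotic receptors Nr1i2, Nr1i3 and Ahr were not called in any tissue, and among the regulators the output factor Dbp of the clock rose in heart with training in vehicle mice (0.39, adjusted p 0.0047).

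In lung the 50 listed members summed to 6057 CPM on average, 0.465 to 0.753% of each library. Cyp2f2, the naphthalene-activating enzyme of club cells, led at 2037 CPM per kilobase, followed by Cyp4b1, which activates furan toxins, at 351, Cyp2b10 at 249, Cyp2a5 at 203 and Cyp2s1, an airway enzyme, at 83.2. In level these were at 3800, 663, 477, 409 and 263 CPM. Cyp2f2 stood at 3894 ± 815, 3663 ± 821, 3657 ± 831 and 3988 ± 280 in sedentary vehicle, trained vehicle, sedentary knockout and trained knockout lungs (SD, n = 3 each). These means differ by less than the SD of every group except trained knockout. Cyp2a5 varied widely, at 267, 275 and 720 in sedentary vehicle, 150, 934 and 134 in trained vehicle, 190, 155 and 556 in sedentary knockout and 282, 533 and 715 in trained knockout lungs. Its range within a group was wider than any difference between group means. Cyp26b1 also spread widely, from 3.62 to 75.3 over the 12 lungs.

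No member passed in lung: 0 of 33 tested in each comparison. For training in vehicle mice 0.204% of 16151 genes passed (33 genes, and 0 to 206 when 1 library was left out), and in the other 4 comparisons 0%. At an unadjusted p under 0.05 by edgeR there were 6 members for training in vehicle mice, 2 for training in knockout mice, 5 for the knockout in sedentary mice, 6 in trained mice and 7 for the difference of training effects. DESeq2 called 1, 0, 0, 0 and 2.

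Cyp1a1, the classical Ah receptor target, was at 10.7, 18.3 and 11.7 in sedentary vehicle and at 24.6, 55.5 and 24.9 in trained vehicle lungs. The trained vehicle libraries were the highest of the tissue, above 20.02, 20.2 and 13.7 in sedentary and 20.2, 13.4 and 13.2 in trained knockout lungs. Training in vehicle mice gave 1.41 (SE 0.32, edgeR adjusted p 0.0904), and the difference of training effects -1.599 (adjusted p 0.217). DESeq2 put both past the threshold, with adjusted p of 0.00114 and 0.023. Cyp4f18, which inactivates leukotriene in mouse leukocytes, went the other way: 8.79, 14.5 and 15.6 in sedentary vehicle, 8.04, 6.89 and 8.62 in trained vehicle, 8.64, 13.5 and 7.63 in sedentary knockout and 12.7, 16.02 and 13.7 in trained knockout lungs. Its difference of training effects was 1.22 (edgeR adjusted p 0.213, DESeq2 adjusted p 0.0331). B cell markers (4 of 4 listed) summed to 69.5 to 212 in sedentary and 23.8 to 59.8 in trained vehicle lungs, and their part in these values was not tested. Next in p for training in vehicle mice was Cyp4b1 (0.29, adjusted p 0.323). In knockout mice, training gave Cyp4f13 (0.28, adjusted p 0.293) and Cyp39a1 (0.24, adjusted p 0.302) after Cyp4f18. The knockout in sedentary mice gave Cyp39a1 (-0.34, adjusted p 0.25), Cyp1b1 (-0.56, adjusted p 0.262) and Cyp3a13 (-0.34, adjusted p 0.318). In trained mice it gave Cyp1a1 (-1.17, adjusted p 0.282), Cyp4f18 (0.85, adjusted p 0.282) and Cyp4f16 (0.35, adjusted p 0.282).

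In fat the 58 listed members summed to 3768 CPM on average, and the sum was dominated by Cyp2e1 at 1703 CPM per kilobase and 3122 CPM. Far below followed Cyp27a1 at 41.5 CPM per kilobase, Cyp2f2 at 41.0, Cyp4v3, a fatty acid hydroxylase, at 29.5, Cyp4b1 at 19.2, Cyp2d22 at 17.5, Cyp1b1 at 16.4 and Cyp20a1, an enzyme with no settled substrate, at 14.9. The summed level was 4975 ± 492 in sedentary vehicle, 3660 ± 1101 in trained vehicle, 2019 ± 329 in sedentary knockout and 4420 ± 1449 in trained knockout fat (SD, n = 3 each). Sedentary knockout fat, at 1693 to 2351, lay below all other libraries, of which the lowest was 2573.

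Between sedentary knockout and sedentary vehicle fat, 1 of 43 tested members passed, against 0.557% of 15448 genes (0.129% lower). Those 86 genes became 199 without sedentary knockout replicate 1 and at most 8 without any one of the other 5 libraries. Cyp2f2, on chromosome 7, stood at 24.1, 21.6 and 11.9 in the knockout and at 109, 63.9 and 97.0 with vehicle. All 3 knockout libraries lay below the vehicle range. The log2 change was -2.22 (SE 0.38), 4.67-fold lower, with an edgeR adjusted p of 0.0459. In trained mice it was 71.1, 128 and 111 with vehicle and 51.3, 137 and 93.4 in the knockout, groups that overlapped fully (-0.14, adjusted p 0.85). Training in knockout mice gave 2.25 (adjusted p 0.0885), and the difference of training effects 2.09 (adjusted p 0.124). DESeq2 called both differences.

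Cyp2e1, which lies on the same chromosome but far from Cyp2f2, followed the same order. It was at 1762, 1083 and 1509 in sedentary knockout fat and at 4586, 4715 and 3773 in sedentary vehicle fat, which is -1.57 on the log2 scale (SE 0.33; adjusted p 0.0556 by edgeR and 4.52e-05 by DESeq2). Trained fat was at 1927, 2957 and 4133 with vehicle and 2258, 4734 and 4030 in the knockout. All 3 sedentary knockout libraries were thus below the other 9. Cyp4v3 ran the opposite way, at 144 to 157 in sedentary knockout and 71.7 to 113 in sedentary vehicle fat. The change was 0.61 (adjusted p 0.115 by edgeR and 0.0294 by DESeq2). Its range was 96.0 to 122 in trained vehicle and 80.3 to 113 in trained knockout fat. Cyp27a1 (65.3 to 91.8 in all 12 libraries) and Cyp4b1 did not pass.

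The 5 adipocyte markers, all listed, summed to 9579 to 11770 in sedentary knockout and 10240 to 11070 in sedentary vehicle fat, sums that overlapped. Among them Lep, the hormone leptin, ran from 1752 to 2397 in sedentary knockout and 861 to 1231 in sedentary vehicle fat, without overlap. The lipid droplet gene Cidec ran from 2899 to 3974 against 3995 to 4219, and Retn, which encodes resistin, from 604 to 775 against 845 to 940, also without overlap. Plin1, at 1755 to 1822 against 1921 to 2194, did not overlap either, while Adipoq did, at 1927 to 2904 against 2484 to 2719. With Lep higher and Cidec, Retn and Plin1 lower, the overlapping sums do not show that adipocyte content was equal. The part of these markers in the Cyp2f2 result was not tested. The club cell secretoglobin Scgb1a1 was at or under 0.353 in every fat library. Cela1, the 1 pancreas acinar marker of 4 that was listed, ran from 26.7 to 44.5 in sedentary knockout and 10.9 to 19.8 in sedentary vehicle fat, and its part in the result was not tested. Leaving out 1 library kept the Cyp2f2 call in 1 of 6 fits, that without sedentary knockout replicate 1, with adjusted p from 0.0398 to 0.195 and a change of -2.003 to -2.43. Without the 4 libraries that carried transcripts of another tissue or of B cells it was -2.24 (adjusted p 0.0778), with these groups alone -2.22 (adjusted p 0.0605), and without the filter on low genes -2.22 (adjusted p 0.0501).

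**Figure D4:**
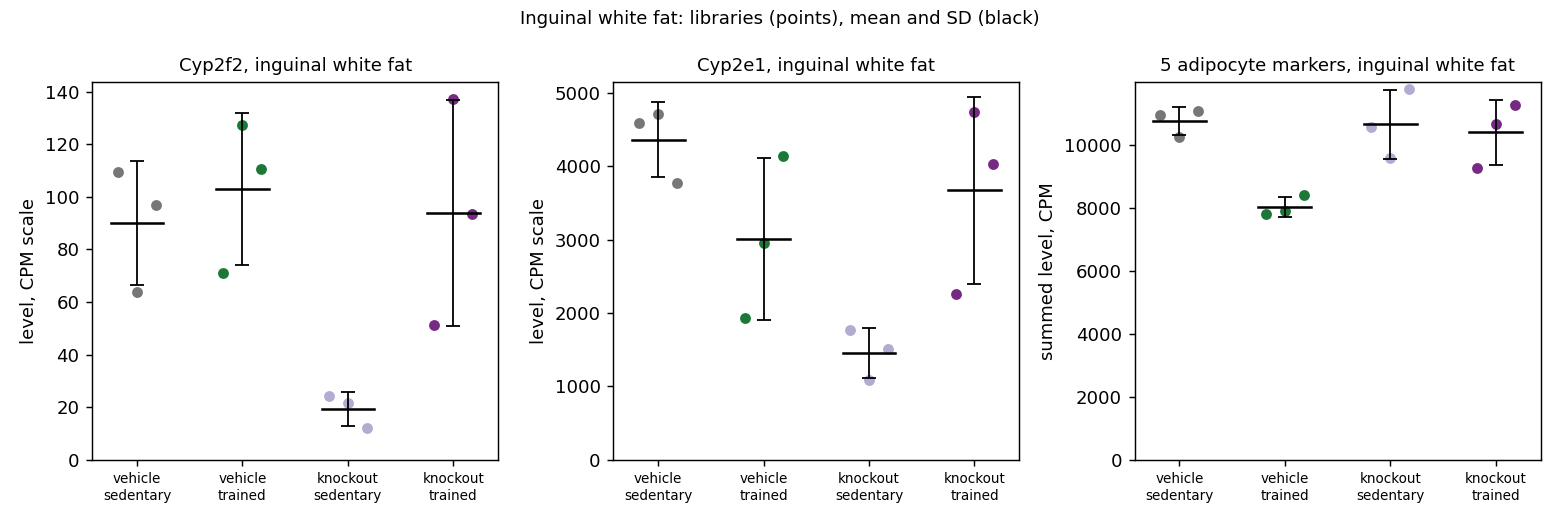
Level of Cyp2f2, of Cyp2e1 and of the summed 5 adipocyte markers in each fat library (points), with mean and SD (black), by group. Sedentary knockout libraries lie lowest for Cyp2f2 (11.9 to 24.1) and Cyp2e1 (1083 to 1762), while their summed adipocyte markers overlap those of sedentary vehicle fat. Within that sum Lep was higher and Cidec, Retn and Plin1 were lower than in sedentary vehicle fat.

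The other fat comparisons called 0 of 43 members. For training in vehicle mice 0% of all genes passed, for training in knockout mice 0%, for the knockout in trained mice 4.43% (685 genes) and for the difference of training effects 0%. The 685 genes became 1630 without trained knockout replicate 1 and 0 without any one of the other 5 libraries. Unadjusted p under 0.05 by edgeR held for 1, 7, 10 and 5 members in that order, and DESeq2 called 0, 3, 2 and 4. Training in vehicle mice gave the smallest p for Cyp1a1 (-1.89, adjusted p 0.21), which rested on sedentary vehicle replicate 2 at 5.88 CPM against 0.952 and 1.05 in the other two. Next were Cyp2u1 (-0.40, adjusted p 0.373) and Cyp2e1 (-0.56, adjusted p 0.382). In trained mice the knockout gave Cyp2s1 at -1.14 (adjusted p 0.13), with 24.7, 8.12 and 8.95 in knockout and 19.7, 36.0 and 35.1 in vehicle fat.

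Liver-type members appeared in fat mainly through 1 library. Trained knockout replicate 2 held more than 50% of the summed fat level of 26 members. The 28 members at 100 or more in liver stood there at a median of 3.07% of their liver level, and the hepatocyte markers, which contain no Cyp gene, stood at 2.79%. Cyp3a11 was at 58.8 in that library against a median of 0.342 in the others, and Cyp2d9 at 41.0 against 0.304. Cyp2d26 (5.20, adjusted p 0.127) and Cyp2d10 (5.35, adjusted p 0.146) had large positive changes between trained knockout and trained vehicle fat, and that library held 74.6% and 73.9% of their summed fat level. Sedentary knockout replicate 1 showed the same at a lower level, a median of 0.524% with hepatocyte markers at 0.359%. Without the libraries that carried other transcripts, 33 members rather than 43 passed the filter on low counts in fat.

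**Figure D5:**
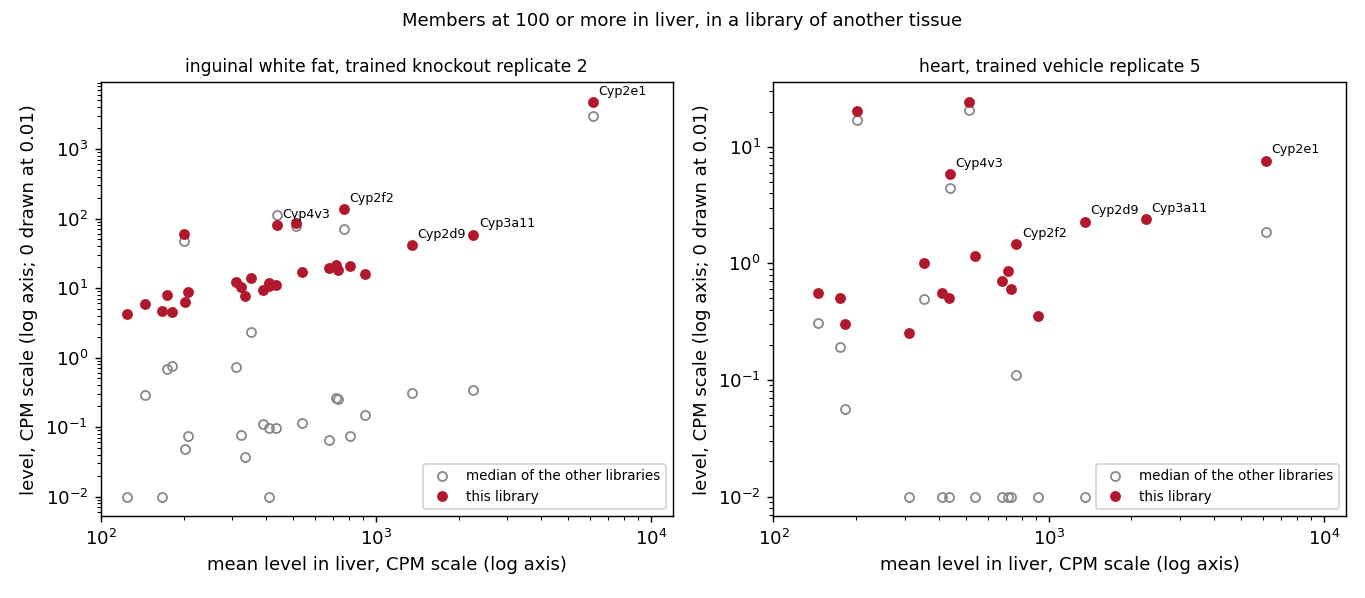
Level in 1 fat and 1 heart library (red) of members at 100 or more in liver, with the median of the other libraries of that tissue (grey rings), against the mean level in liver, all on log axes of the CPM scale. In the fat library most members lie near 3.07% of their liver level. Cyp2e1, Cyp2d22, Cyp4v3, Cyp2f2 and Cyp27a1 lie far above that, with the other fat libraries also high.

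In heart the 41 listed members summed to 135 CPM on average, 0.0116 to 0.018% of each library, the lowest of the 4 tissues. Cyp27a1 led at 11 CPM per kilobase, followed by Cyp4b1 at 9.45, Cyp2d22 at 6.14, Cyp20a1 at 3.21, Cyp2e1 at 2.79, Cyp4f13 at 2.54, Cyp2u1 at 2.39 and Cyp39a1 at 2.26. Cyp27a1 was at 20.8 ± 2.86, 20.9 ± 2.29, 19.3 ± 2.29 and 22.2 ± 2.59 CPM in sedentary vehicle, trained vehicle, sedentary knockout and trained knockout hearts (SD, n = 5 each). Its change with training in knockout mice was 0.19 (limma adjusted p 0.449). Of 17 members tested, 0 passed in each comparison. Background shares were 8.27% for training in vehicle mice, 0.0223% for training in knockout mice, 0% for the knockout in sedentary mice, 0.52% in trained mice and 0% for the difference of training effects. At an unadjusted p under 0.05 by limma there were 0, 2, 1, 2 and 1 members in that order. Training in vehicle mice thus called 1113 of 13456 genes (419 without trained vehicle replicate 1 to 1425 without trained vehicle replicate 5) and 0 of 17 members, of which Cyp2d22 (-0.18, adjusted p 0.288) was the smallest in p. Cyp2u1, lower in trained knockout livers, was at 11.3 ± 0.81 in sedentary and 9.26 ± 0.671 in trained knockout hearts (-0.26, adjusted p 0.197; SD, n = 5 each). Cyp2b10 was at 3.88 to 5.37 in sedentary knockout and 1.84 to 5.50 in sedentary vehicle hearts (0.43, adjusted p 0.604), and Cyp1b1 was at 8.12 to 10.3 in trained knockout and 5.99 to 7.59 in trained vehicle hearts, which did not overlap (0.33, adjusted p 0.152). Smallest in p for the difference of training effects were Cyp1b1 (0.38, adjusted p 0.592), Cyp4b1 (-0.25, adjusted p 0.654) and Cyp2d22 (0.25, adjusted p 0.673).

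In heart and lung, values of Cyp2e1 are set beside those of the adipocyte markers, whose part in them was not tested. Heart values were 0.907, 1.45, 11.1, 1.03 and 0.834 in sedentary vehicle mice, where the 5 adipocyte markers summed to 1.47, 1.92, 57.6, 2.61 and 0.417. In trained knockout hearts Cyp2e1 was at 8.75, 4.94, 0.711, 8.70 and 25.4 and the markers at 23.1, 13.6, 0.854, 21.3 and 82.1. In these 2 groups the libraries high in one were high in the other. Trained vehicle replicate 5, the library with hepatocyte transcripts, was at 7.59 for Cyp2e1 with adipocyte markers at 1.77. In lung, sedentary vehicle replicate 3 was highest in both, with Cyp2e1 at 127 against 9.43 and 7.55 and markers at 166 against 13.6 and 20.1. Heart trained knockout replicate 5 held Cyp2f2 at 10.2 and Cyp2a5 at 9.69, which were at or under 1.47 and 0.354 in all other hearts, and the 5 club cell markers there summed to 59.0, against 21.2 to 34.6 in the other hearts. Aldh1a1, at 21.1 to 34.5 in every heart, made up 26.9 of that sum, and Scgb1a1 was at 24.1 there and 0 in all other hearts. In heart trained vehicle replicate 5, the 19 listed members at 100 or more in liver were at a median of 0.167% of their liver level, with hepatocyte markers at 0.109%.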

How the data were processed

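Trizol, RNeasy columns and an Illumina library kit were used, per the labels. Partek, STAR (2.7.8a), mm10 and GRCm39 appear in the submitters' processing notes without their roles. The deposited liver and heart tables hold a scaled signal per gene, whose column totals contradict the CPM the labels name. The deposited fat and lung tables hold expected counts per transcript, which were summed per symbol and rounded. Their coordinates match GRCm38 in 1.41% and 1.34% of rows.

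Liver and heart values were divided by 1 factor per tissue, filtered at a mean of 1 and tested with limma 3.58.1 with a trend on log2(value + 1), so that fold changes of low genes are understated. Fat and lung were tested with edgeR 4.0.16 (TMM, its filter by group, quasi-likelihood). Each tissue had 5 comparisons from 1 model of its 4 groups. P-values were adjusted by Benjamini-Hochberg over all genes of a comparison, with calls under 0.05. Alternatives included DESeq2 1.42.0. Scripts were tested on simulated data, in R 4.3.3. Lengths are those of the longest coding GENCODE transcript.

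Members named are the 8 leading per length in each tissue, all called members or the 3 smallest p-values, the 4 standing farthest above the next tissue and fixed lists of known roles. Members and lists were chosen with earlier results of these data known. The labels do not state separate animals per replicate, so the spread behind each p-value may be technical.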

Additional observations from a re-analysis of the deposited data

Results flagged for a closer look

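Among the named members, groups of 5 libraries were screened for a single value far from the others, by Dixon's ratio at its 95% limit of 0.71 for 5 samples. In liver 7 of 124 groups were flagged and in heart 2 of 60, where chance alone flags about 1 in 20. In liver, Cyp2c38 was at 19.5 in sedentary knockout replicate 2, against 38.9 in the nearest library, and at 26.5 in trained knockout replicate 4, against 15.6. Both lie toward the other group of the comparison in which Cyp2c38 was called. Sedentary knockout replicate 2 was also high for Cyp2f2, at 1044 against 683, and trained knockout replicate 4 for Cyp2e1, at 7756 against 6751. Cyp7a1 was at 479 in trained vehicle replicate 2, against 207. Cyp2a4 was at 2.68 in sedentary vehicle replicate 1, against 0.585, and Cyp2j9 at 16.5 in trained vehicle replicate 1, against 10.3. In heart, Cyp2e1 was at 11.1 in sedentary vehicle replicate 3, against 1.45, where adipocyte markers summed to 57.6, and Cyp2b10 at 5.5 in sedentary vehicle replicate 1, against 2.79. The part of other cells or of the library in these values was not tested. In all 4 tissues 0 members were called for the difference between the training effects, by limma in liver and heart and edgeR in fat and lung, with 9, 1, 5 and 7 members at an unadjusted p under 0.05 in liver, heart, fat and lung and 4 and 2 called by DESeq2 in fat and lung.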

How the results depend on the processing

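Counts of called members rest on few genes near the threshold. For training in knockout livers the count of 1 was 0 without the filter on low genes, with the replicate number as a block, with only the groups of the comparison and without libraries carrying transcripts of another tissue, and ran from 0 to 2 when 1 library was left out. For the knockout in trained livers the count of 2 was 0 without the filter, 1 with each library divided by its own total, 1 without libraries of other transcripts, and 0 to 3 when 1 library was left out. For the knockout in sedentary fat the count of 1 was 4 with DESeq2, 0 without the filter, with the replicate block, with only the groups of the comparison and without libraries of other transcripts, and 0 to 1 when 1 library was left out. DESeq2 gave 3 in place of 0 for training in knockout fat (0 to 1 when 1 library was left out), 2 for the knockout in trained fat (0 to 2), 4 for the difference of training effects in fat (0 to 2), 1 for training in vehicle lungs and 2 for the difference in lung. The other 12 counts were 0 in the main test and under every alternative run. The cause of these differences was not tested, apart from the smaller number of libraries or genes where an alternative removes them. Of 1071 refits of single members 1007 kept sign and side of the threshold, 37 lost the call, 16 gained it and 11 changed sign. Most of these refits were of members not called in the main test, which cannot lose a call. For the called members, leaving out 1 library kept the call in 2 of 10 refits for Cyp2c38 and 6 of 10 for Cyp26a1. It was kept in 2 of 10 for Cyp2u1 and 1 of 6 for Cyp2f2. The other alternatives kept these calls in 2 of 6, 5 of 6, 3 of 6 and 2 of 6, in that order. Values that changed sign came mostly from leaving out 1 library: Cyp2u1 for training in vehicle livers ran from -0.131 to 0.152 over those refits (0.014, 0.064, 0.025 and 0.042 among them), Cyp26a1 for the knockout in sedentary livers from -0.360 to 0.0024, Cyp2f2 for training in vehicle fat from -0.042 to 0.370 (-0.010 among them) and for the knockout in trained fat from -0.456 to 0.164 (0.039 among them). Cyp2e1 for the knockout in trained fat was -0.15 without libraries of other transcripts, against 0.29.

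Same-numbered libraries were not treated as pairs, since in no comparison did every pair's correlation pass 0.1 (range -0.389 to 0.367). With the replicate block the counts were 0 for training in knockout livers, 2 for the knockout in trained livers and 0 for the knockout in sedentary fat (adjusted p 0.0705 for Cyp2c38 and 0.0744 for Cyp2f2). In sedentary lungs all 3 libraries correlated best with their own number, a hint from the data and not from the design.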
